A study of Homo sapiens with 10 samples.

Results

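A set of 10 long noncoding RNA (lncRNA) genes known from prostate cancer or from nuclear regulation were followed through an RNA sequencing experiment on PC3 cells, a human prostate cancer line derived from a bone metastasis. They are MALAT1, NEAT1, PVT1, KCNQ1OT1, PCAT1, PCA3, SCHLAP1, HOTAIR, HOTAIRM1 and H19. They were taken by name, and all 10 were found among the 62656 genes of the deposited table. The experiment compared 5 libraries of cells given the vehicle DMSO with 5 libraries of cells given 1 µM GW3965, a synthetic agonist of the liver X receptors (LXRs), each for 24 h after overnight starvation. All libraries came from this 1 cell line, and no genetic manipulation is described for them. No source used here says whether the 5 libraries of a condition were separate cultures, so the tests measure the spread between these libraries, which may be technical.

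Values are RPKM, read numbers scaled to the length of a gene's exons and to the size of the library. The table holds 1 value per gene and library, so transcripts of 1 gene are not told apart. The read numbers behind these values could be recovered, because each value is a whole number of reads times a constant of the gene and of the library. The libraries held between 30429384 and 41636379 reads. The share of reads on 7SL RNA genes, the RNA of the signal recognition particle, ran from 12.0% to 23.2%. ABCA1 and ABCG1, cholesterol transporters and classical LXR targets, served as a check of the labels. ABCA1 rose from 3.43 ± 1.34 to 16.5 ± 2.37 RPKM and ABCG1 from 1.57 ± 0.392 to 7.06 ± 0.790 RPKM (mean ± SD, n = 5 each, limma adjusted p = 0.00063 and 0.000124). KRT8, KRT18, VIM and CDH2 were between 10.5 and 78.8 RPKM in every library. KLK3, which encodes PSA, was at 0 in all libraries. Of the 5 leukocyte markers, none exceeded 0.337 RPKM in any library.

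A lncRNA acts as RNA and is not translated. MALAT1 accumulates in nuclear speckles, the bodies that store splicing factors, and NEAT1 is the scaffold on which paraspeckles are built. KCNQ1OT1 is transcribed antisense within KCNQ1 from the paternal chromosome and silences imprinted neighbors in cis, while H19 is the maternally expressed RNA of the adjoining imprinted domain. HOTAIR and HOTAIRM1 arise from the HOXC and HOXA clusters. PVT1 and PCAT1 flank the MYC region, PCA3 lies antisense within PRUNE2 and is the basis of a urine test for prostate cancer, and SCHLAP1 is linked to aggressive prostate tumors.

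The sequence most useful for reading these data is that of MALAT1, because most of its bases are shared with an antisense gene. MALAT1 spans chr11:65497688-65506516 on the plus strand of GRCh38 and is counted as a single stretch of 8829 bases. The antisense gene TALAM1 (chr11:65499312-65507432, minus strand) lies over 7205 of these bases, or 81.6%. The exon length behind the deposited TALAM1 values was 8121 bases, the whole RefSeq span of that gene, so both genes were in the annotation used for counting. Genes of at least 200 bases that share no exon base with another gene held reads in 27382 of 34973 cases (78.3%). Genes lying wholly within exons of the opposite strand held reads in only 19 of 485 cases (3.92%), and those within exons of the same strand in 21 of 442 cases (4.75%). Genes under exons of another gene thus held few reads on either strand, and what the enclosing gene received from shared bases was not measured. For MALAT1, 1624 bases lie outside TALAM1, and 1228 of them (13.9% of its length) are also free of every other gene of GENCODE 29. These free bases are at its 5′ end, around the starts of its transcripts. TALAM1 itself had 29 to 76 reads per library, or 0.103 to 0.234 RPKM, with 916 of its bases beyond the end of MALAT1.

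**Figure D1:**
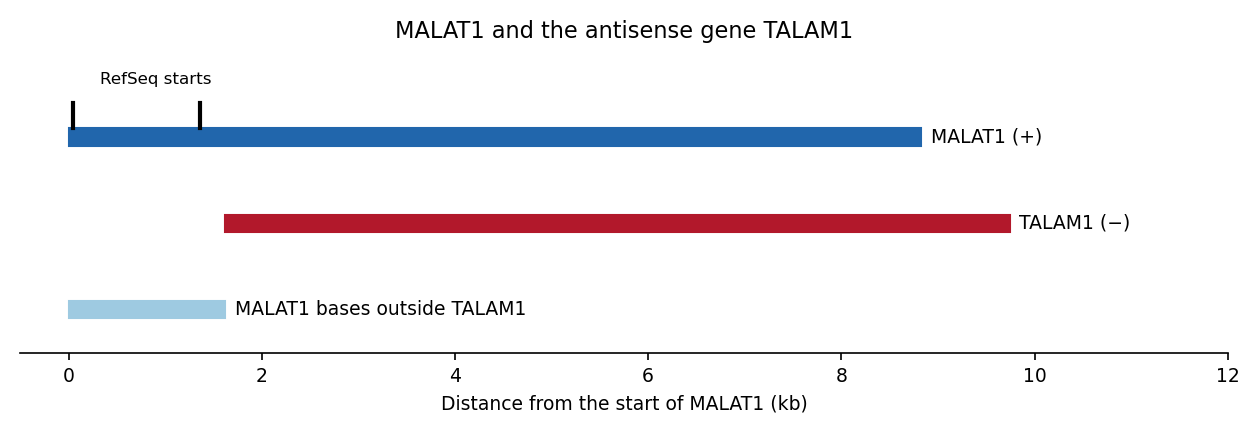
Map of MALAT1 (blue, plus strand) and TALAM1 (red, minus strand), with the distance from the start of MALAT1 in kb on the horizontal axis. Black ticks mark the 2 RefSeq starts, and the light bar marks the 1624 bases of MALAT1 outside TALAM1, against 7205 bases under it.

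RefSeq gives MALAT1 2 starts, and their flanks are shown because both starts lie in the part of the gene outside TALAM1. Each sequence runs 5′ to 3′ on the plus strand of GRCh38.p14 from 250 bases before the start to 50 after, at chr11:65497488-65497787 and chr11:65498795-65499094. Capitals mark the letters of a GC box (GGGCGG) or a TATA box (TATAAA), searched on both strands.
MALAT1 start 1: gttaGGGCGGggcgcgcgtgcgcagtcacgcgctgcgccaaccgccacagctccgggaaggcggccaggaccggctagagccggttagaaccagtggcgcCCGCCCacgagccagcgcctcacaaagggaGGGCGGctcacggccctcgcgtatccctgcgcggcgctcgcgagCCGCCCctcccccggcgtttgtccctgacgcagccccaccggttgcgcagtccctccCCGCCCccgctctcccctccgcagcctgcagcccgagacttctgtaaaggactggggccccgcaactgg
MALAT1 start 2: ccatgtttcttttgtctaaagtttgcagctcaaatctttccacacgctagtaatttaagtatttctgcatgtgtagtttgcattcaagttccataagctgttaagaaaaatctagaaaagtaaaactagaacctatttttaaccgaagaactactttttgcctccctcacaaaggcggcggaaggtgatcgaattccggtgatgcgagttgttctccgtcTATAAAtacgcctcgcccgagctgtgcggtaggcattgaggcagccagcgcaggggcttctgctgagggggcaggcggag
The flank of the first start held 5 GC boxes and no TATA box, and that of the second held 1 TATA box and no GC box. Among 35116 RefSeq promoters of this length, 45.0% held a GC box and 11.5% a TATA box. The spaced repeat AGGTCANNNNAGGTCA, the type of element that LXRs bind as a dimer with RXR, was in neither flank and in 7 of all promoters (0.0199%), which says only that these letters are not in these windows. The second start lies 267 bases before the end of TALAM1 and the first 1574 bases before it.

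By GENCODE 29, which does not hold TALAM1, MALAT1 shared 6.21% of its exon bases with other genes. The same measure gave 1.23% for KCNQ1OT1 (chr11:2608328-2699994, minus strand), 2.13% for NEAT1 (chr11:65422774-65445540, plus strand) and between 6.38% and 14.8% for HOTAIR (chr12:53962308-53974956, minus strand), H19 (chr11:1995176-2001470, minus strand), PVT1 (chr8:127794533-128101253, plus strand), PCA3 (chr9:76691980-76863307, plus strand), PCAT1 (chr8:126556323-127419050, plus strand) and SCHLAP1 (chr2:180692104-180916939, plus strand). HOTAIRM1 (chr7:27095647-27100265, plus strand) shared 44.9% of its 1496 exon bases. These shares and positions refer to GENCODE 29, whereas the annotation release of the table is not given in the sources used here, and overlaps with genes of later releases were computed only for MALAT1. The length behind the PVT1 values was 25431 bases, against 5493 in GENCODE 29, and that of HOTAIR was 3083 bases against 2602. For MALAT1, NEAT1, KCNQ1OT1, SCHLAP1 and HOTAIRM1 both lengths were the same.

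By the deposited values, NEAT1 was the most abundant of the 10 RNAs per length in vehicle-treated cells. Its level was 15.1 ± 2.41 RPKM in DMSO (mean ± SD, n = 5), above every other member in 10 of 10 libraries. MALAT1 (2.50 ± 0.572), PVT1 (2.20 ± 0.244), KCNQ1OT1 (1.87 ± 0.478) and HOTAIRM1 (1.39 ± 0.178 RPKM) followed, and each overlapped its neighbor in this order across the DMSO libraries. SCHLAP1 (0.417 ± 0.206) and PCAT1 (0.397 ± 0.0700 RPKM) formed a lower pair that also overlapped. HOTAIR (0.0352 ± 0.0260), PCA3 (0.0301 ± 0.00770) and H19 (0.0274 ± 0.0131 RPKM) were lowest and overlapped in their turn. The DMSO ranges did not overlap at 3 steps of the order, from NEAT1 to MALAT1, from HOTAIRM1 to SCHLAP1 and from PCAT1 to HOTAIR. The places of MALAT1, PVT1 and HOTAIRM1 in this order apply only to the values as deposited. The PVT1 values rest on 25431 bases, against 5493 in GENCODE 29, and its reads over the shorter set were not counted apart. Over its 824 unshared bases instead of 1496, the reads of HOTAIRM1 amounted to 2.53 ± 0.323 RPKM in DMSO. For MALAT1, division of the same reads by its 1228 free bases instead of 8829 gave 18.0 ± 4.12 RPKM in DMSO and 21.7 ± 5.82 in GW3965. Both divisions assume that all reads came from the unshared bases and lay evenly over them, which was not measured. They are thus not levels to set beside that of NEAT1, and the place of MALAT1 against NEAT1 is not settled.

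NEAT1 and MALAT1 were the members with a role in nuclear bodies, and GW3965 did not move either past the threshold. NEAT1 measured 15.4, 16.2, 16.1, 10.95 and 17.0 RPKM in DMSO 1 to 5 and 21.5, 23.2, 12.5, 14.8 and 10.6 RPKM in GW3965 1 to 5. GW3965 libraries thus included both the highest and the lowest values, and DMSO 4 lay apart from the other DMSO libraries. The log2 fold change on the RPKM + 0.1 scale was 0.08 (SE 0.21, 95% interval -0.39 to 0.55, limma adjusted p = 0.978). In bulk RNA, a lower share of cells with a transcript and less of it per cell cannot be told apart. MALAT1 measured 3.29, 2.85, 2.37, 1.86 and 2.12 RPKM in DMSO 1 to 5 and 3.98, 3.81, 2.55, 2.58 and 2.199 RPKM in GW3965 1 to 5. Its 2 highest values were GW3965 1 and 2, and the remaining 3 treated libraries lay within the range of DMSO. Its log2 fold change was 0.25 (SE 0.19, 95% interval -0.17 to 0.68, limma adjusted p = 0.870). Only 13.9% of the MALAT1 length, at its 5′ end, is free of other genes, and reads from the shared bases were not measured. This and the other MALAT1 results may therefore not cover the rest of the transcript.

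KCNQ1OT1, the imprinting RNA, measured 2.42, 1.86, 1.67, 1.20 and 2.21 RPKM in DMSO 1 to 5 and 2.22, 2.22, 1.38, 1.37 and 1.30 RPKM in GW3965 1 to 5. The treated libraries split into a pair at the level of the high DMSO libraries and 3 near the low ones. The log2 fold change was -0.14 (SE 0.21, 95% interval -0.60 to 0.33, limma adjusted p = 0.956). Its reads, 3847 to 8142 per library, exceeded those of MALAT1 but were spread over 91667 bases. KCNQ1, its potassium channel host gene, was between 0.00639 and 0.0419 RPKM, so the antisense RNA was above its host in every library.

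PVT1 and HOTAIRM1 were the steadiest of the tested members. PVT1, a host of several microRNAs next to MYC, measured 1.86, 2.27, 2.31, 2.07 and 2.50 RPKM in DMSO 1 to 5 and 2.08, 2.12, 1.98, 2.06 and 2.11 RPKM in GW3965 1 to 5. All treated values fell within the range of the DMSO libraries. Its log2 fold change was -0.08 (SE 0.08, 95% interval -0.26 to 0.10, limma adjusted p = 0.926). HOTAIRM1, a myeloid RNA of the HOXA cluster, measured 1.28, 1.64, 1.26, 1.26 and 1.53 RPKM in DMSO 1 to 5 and 1.63, 1.61, 1.38, 1.49 and 1.73 RPKM in GW3965 1 to 5. The groups overlapped, and the log2 fold change was 0.16 (SE 0.10, 95% interval -0.06 to 0.39, limma adjusted p = 0.825). MYC, the oncogene near PVT1 and PCAT1, stood at 15.2 ± 2.14 RPKM in DMSO and 14.99 ± 2.71 RPKM in GW3965 (log2 fold change -0.02, limma adjusted p = 0.989).

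Among the 20402 genes whose mean over the libraries reached 0.5 RPKM, limma called 32 (0.157%) at an adjusted p under 0.05, 30 of them higher (0.147%) and 2 lower (0.0098%), and none of the 5 members tested was among them. At an unadjusted p under 0.05 the count was 0 of 5 members, against 6.99% of all genes, and voom on the recovered reads also called 0. Non-overlapping groups occurred for 1.84% of tested genes and for 0 of the 10 members. The 95% intervals of the 5 members excluded a doubling and a halving, but they left room for changes as large as the upper bound of 0.68 for MALAT1 and the lower bound of -0.60 for KCNQ1OT1 on the log2 scale. None of the 5 passed the threshold in any of the 23 other settings of the fit. The direction of NEAT1 was not fixed: without the libraries DMSO 1, GW3965 1 and GW3965 2 its log2 fold change was -0.24.

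**Figure D2:**
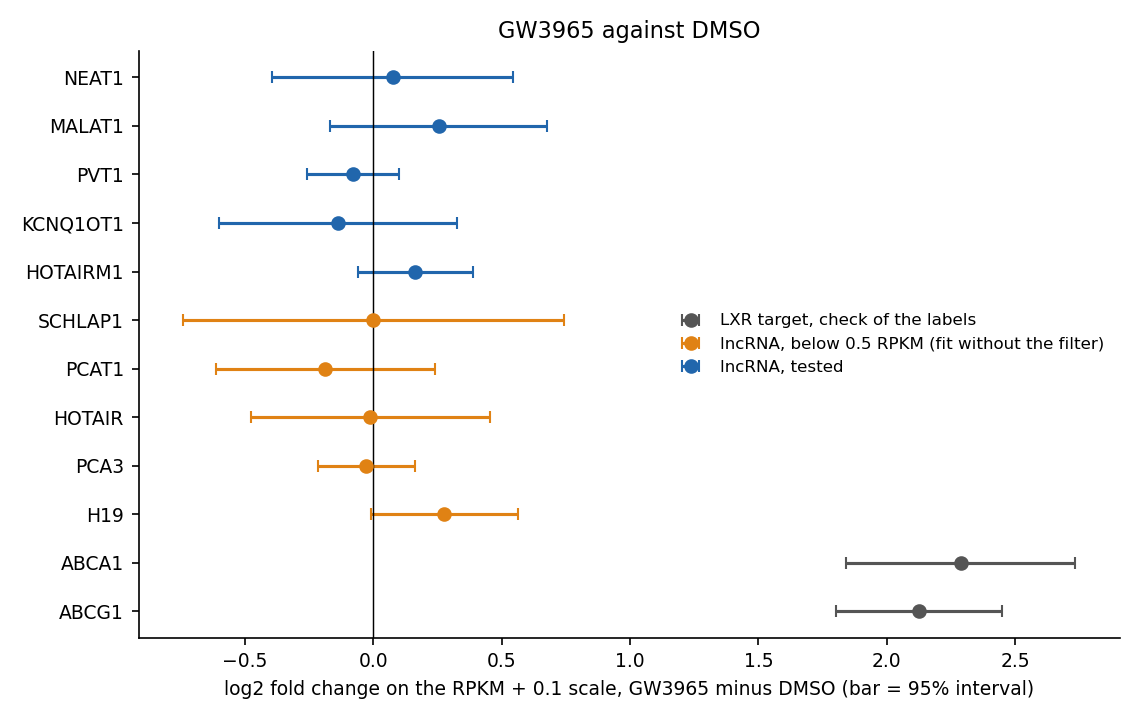
Log2 fold change of GW3965 against DMSO on the RPKM + 0.1 scale with 95% intervals (bars) for the 10 lncRNAs and the label check genes. Blue marks the 5 tested members and orange the 5 under 0.5 RPKM, taken from the fit without the filter. All 10 intervals include 0, whereas ABCA1 and ABCG1 lie at 2.29 and 2.13. For the orange members, most of all HOTAIR, PCA3 and H19, the added 0.1 RPKM compresses fold changes and intervals. Short bars there do not show that a change was small.

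The 5 members with a mean under 0.5 RPKM were the prostate cancer RNAs PCAT1, SCHLAP1 and PCA3 together with HOTAIR and H19, and each was compared by enumerating each way to label the libraries (exact permutation test, two-sided, smallest possible p = 0.00794). PCAT1, an RNA of the 8q24 region found through its rise in prostate tumors, was well covered, with 170 to 313 reads per library. It measured 0.490, 0.346, 0.389, 0.318 and 0.442 RPKM in DMSO 1 to 5 and 0.463, 0.407, 0.284, 0.264 and 0.284 RPKM in GW3965 1 to 5. Like KCNQ1OT1, its treated libraries fell into a higher pair, GW3965 1 and 2, and 3 lower ones. The exact permutation p was 0.238.

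SCHLAP1, which interacts with the SWI/SNF chromatin remodeler, had 24, 19, 25, 6 and 28 reads in DMSO 1 to 5 and 13, 30, 21, 21 and 15 reads in GW3965 1 to 5. DMSO 4 was lowest and the groups had nearly the same mean, 0.417 and 0.382 RPKM (exact permutation p = 1). PCA3 had 13, 17, 12, 13 and 20 reads in DMSO 1 to 5 and 18, 17, 9, 9 and 17 reads in GW3965 1 to 5 (exact permutation p = 0.698). PRUNE2, the gene within which PCA3 lies, was also low, between 0.0292 and 0.124 RPKM.

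HOTAIR, an RNA associated with Polycomb repression, had 3, 6, 7, 2 and 1 reads in DMSO 1 to 5 and 1, 6, 0, 2 and 11 reads in GW3965 1 to 5. It was thus undetected in 1 library, where a count of 0 allows up to 3 reads, and highest in another of the same treatment (exact permutation p = 0.976). HOXC11, its neighbor, was between 0 and 0.0260 RPKM. H19 had 5, 2, 2, 3 and 2 reads in DMSO 1 to 5 and 5, 10, 3, 4 and 7 reads in GW3965 1 to 5. The reads summed to 14 in DMSO and 29 in GW3965, the groups overlapped, and the exact permutation p was 0.0476. The permutation p-values of these low members were not adjusted for their number. In the fit without the filter on low values the limma adjusted p of H19 was 0.913, so no change was called. What size of change could be detected at this depth was not tested. IGF2, the imprinted partner of H19, was between 0 and 0.0259 RPKM. Intervals and limits from read numbers cover counting error only.

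The spread between libraries differed among the members. The SD of log2 values within conditions was 0.39 for NEAT1, 0.37 for KCNQ1OT1 and 0.34 for MALAT1, at the 82.1, 81.2 and 78.6 percentile of all tested genes. HOTAIRM1 and PVT1 had an SD of 0.15 and 0.11, at the 36.6 and 21.2 percentile. For the members under 0.5 RPKM the SD was 0.55 (SCHLAP1), 0.36 (HOTAIR), 0.25 (PCAT1), 0.19 (H19) and 0.10 (PCA3), without a percentile. At such low levels the added 0.1 RPKM compresses the SD. The ratio of variance to mean of the scaled reads, near 1 for counting error alone, was 933 for NEAT1, 418 for KCNQ1OT1, 55.9 for MALAT1, 13.3 for PVT1 and 11.4 for PCAT1. For HOTAIRM1 (0.905), H19 (0.959) and PCA3 (1.39) the libraries varied about as much as counting error gives, and SCHLAP1 (3.30) and HOTAIR (4.03) lay between. This ratio grows with the number of reads, so it does not rank members of unlike depth. Mean reads per library were 12918 for NEAT1 but 4.3 for H19. At few reads, a ratio near 1 does not show that a member was steady.

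NEAT1, MALAT1, KCNQ1OT1 and PCAT1 were the 4 members with an r above 0.7 with the main axis of variation between libraries. All 4 were higher on average in DMSO 1, GW3965 1 and GW3965 2 than in the other 7 libraries, by ratios of 1.43, 1.56, 1.46 and 1.36, although NEAT1 in DMSO 1 was below DMSO 2, 3 and 5, and PCAT1 in GW3965 2 was below DMSO 5. These 3 libraries also stood apart on the first principal component of the reads over 14372 genes, with values from 17.7 to 19.7, against -21.9 to 3.91 in the remaining libraries, and it held 41.4% of the variance. The Pearson r with this component over the 10 libraries was 0.93 for KCNQ1OT1, 0.86 for MALAT1, 0.83 for PCAT1 and 0.82 for NEAT1. Among all tested genes the median r was -0.11, and 9.19% were above 0.7. HOTAIRM1 (0.26) and PVT1 (-0.10) did not share the pattern, and the 4 remaining members, all with at most 30 reads in each library, were between -0.09 and 0.45. These correlations are descriptions, since the component was computed from the same libraries.

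**Figure D3:**
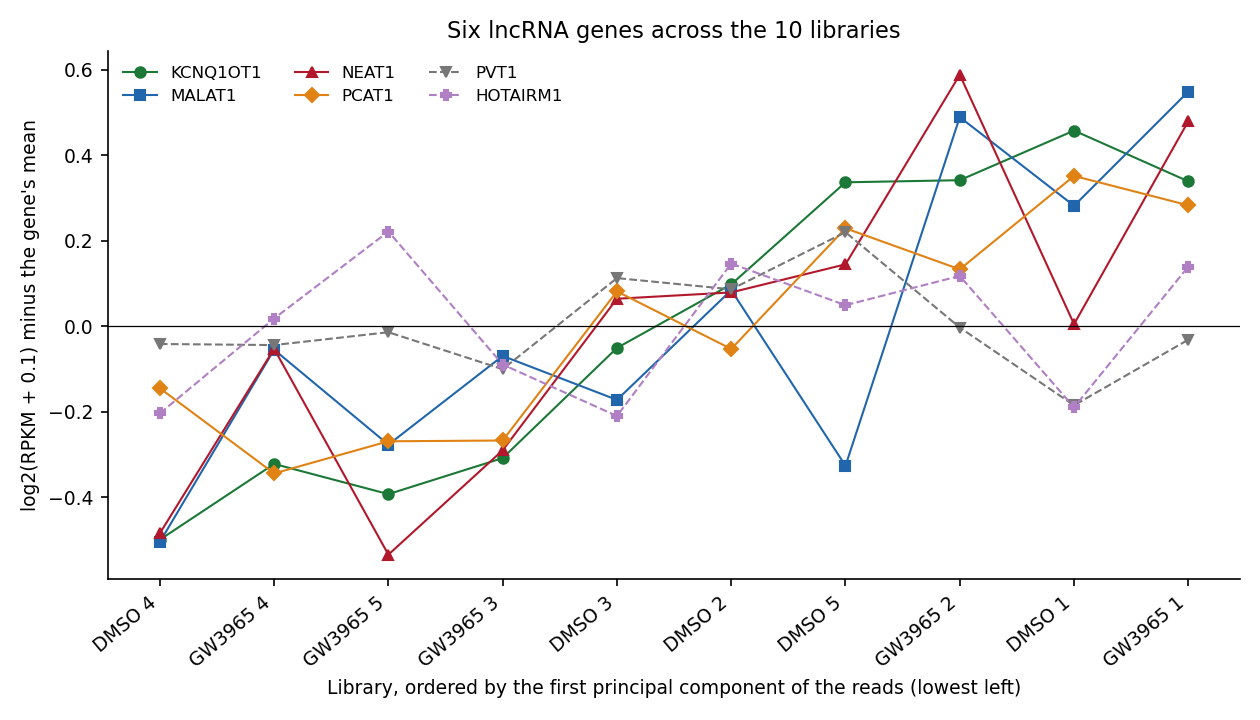
Log2(RPKM + 0.1) of 6 lncRNA genes minus each gene's mean (vertical axis) in the 10 libraries, ordered from the lowest to the highest value of the first principal component. KCNQ1OT1, MALAT1, NEAT1 and PCAT1 (solid lines) go from below to above their means, with r of 0.82 to 0.93, whereas PVT1 and HOTAIRM1 (dashed lines) have r of -0.10 and 0.26.

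Pairwise relations were computed for the 5 members with a mean of at least 100 reads, giving 10 pairs over 10 libraries with 100000 permutations and adjustment over the 10 pairs. The permutations treat the libraries as exchangeable and do not take the first principal component into account. With it, 9.19% of all tested genes had an r above 0.7 and 17.8% below -0.7. How often other genes pair as closely was not computed, so the p-values do not show a relation particular to these members. KCNQ1OT1 and PCAT1, which lie on different chromosomes, were the closest pair (Pearson r = 0.91, permutation p = 0.00102, adjusted p = 0.0102, Spearman rho = 0.87, permutation p = 0.00212, adjusted p = 0.0212), with r = 0.94 without the 2 libraries farthest from the median of KCNQ1OT1. NEAT1 and KCNQ1OT1 followed (r = 0.82, permutation p = 0.00334, adjusted p = 0.0167, rho = 0.79, permutation p = 0.00896, adjusted p = 0.0448), with r = 0.78 without GW3965 2 and GW3965 5. For MALAT1 and NEAT1, which are neighbors on chromosome 11, r was 0.79 (permutation p = 0.00713, adjusted p = 0.0238) but rho was 0.61 (permutation p = 0.0668, adjusted p = 0.134). Without GW3965 1 and GW3965 2, the libraries farthest from the median of MALAT1, their r was 0.49. The relation was thus weaker without those 2 libraries, but leaving out the extremes of MALAT1 also narrows its range. Within conditions r was 0.53 in DMSO and 0.98 in GW3965 for this pair, 0.89 and 0.97 for KCNQ1OT1 and PCAT1, and 0.82 and 0.95 for NEAT1 and KCNQ1OT1 (n = 5 each). The other 3 pairs among these 4 genes had adjusted p of Pearson r between 0.0714 and 0.208, and the 4 pairs with PVT1 between 0.494 and 0.733.

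Other measures of the 3 libraries were as follows. Total reads in DMSO 1, GW3965 1 and GW3965 2 were 34381616, 30429384 and 36921666, within or just under the range of the rest. Their 7SL share was 21.4%, 12.0% and 14.5%. Reads on other lncRNA genes of GENCODE 29 took 2.41% to 2.59% of reads outside 7SL in these libraries and 2.13% to 2.48% in the other 7, and the 10 members took 0.0845% to 0.105% against 0.0521% to 0.0860%. Messenger RNAs of cytosolic ribosomal proteins took 2.78% to 2.85% against 2.74% to 3.05%. The part of RNA composition or RNA quality in the pattern was not tested. With the component as a covariate, limma gave KCNQ1OT1 a log2 fold change of -0.21 (SE 0.07, 95% interval -0.36 to -0.06, unadjusted p = 0.0103, adjusted p = 0.232), against an SE of 0.21 without it. In that fit 2533 of the 20402 genes had an unadjusted p under 0.05 by limma, against 1427 without the component. At the adjusted threshold 146 genes (0.716%) passed, and again none of the 5 members. KCNQ1OT1 had an r of 0.93 with the component, which was computed from the same libraries.

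By Pearson correlation over the 10 libraries among the 20402 tested genes, the genes most like MALAT1 were NALCN (0.96), which encodes a sodium leak channel, PLEKHH2 (0.96) and KLHL24 (0.95). Those most like NEAT1 were an unnamed gene, ENSG00000290535 (0.97), HEMK1 (0.97) and AL390023.1 (0.96).

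The proteins and neighboring genes around these RNAs were read from 7 lists with 103 tested genes, and none rose or fell with GW3965 by limma. At an unadjusted p under 0.05, which 6.99% of all tested genes passed, there were 2 of 103, REST (a repressor of neuronal genes, log2 fold change 0.16) and CTSD (cathepsin D, 0.14, named after its value was seen), and voom called 0. The 24 paraspeckle protein genes had a median log2 fold change of -0.01, from -0.19 for RBM14 to 0.13 for HNRNPA1. For the 27 nuclear speckle genes the median was 0.00, from -0.10 for SRSF6 to 0.21 for PNN. The 17 Polycomb and silencing partners ranged from -0.15 for PHF19 to 0.16 for REST, with a median of -0.01. Over all tested genes the median was 0.00.

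Near the members on the chromosomes the picture was similar. The 9 tested 11q13 neighbors of MALAT1 and NEAT1 ranged from -0.21 for POLA2 to 0.12 for FAM89B, with a median log2 fold change of -0.10. The 8 tested 11p15 neighbors of KCNQ1OT1 and H19 ranged from -0.10 for CDKN1C to 0.17 for SLC22A18, with a median of 0.01. CDKN1C, a cell cycle inhibitor that KCNQ1OT1 silences on the paternal chromosome, was at 4.21 ± 0.297 RPKM in DMSO and 3.91 ± 0.375 RPKM in GW3965. The 5 tested HOX genes ranged from -0.23 for HOXC13 to -0.05 for HOXA4, with a median of -0.06. The 13 other lncRNAs tested ranged from -0.17 for SNHG1 to 0.20 for PCAT7, with a median of 0.05.

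Most genes of the protein lists had a negative r with this axis. The median r with the first principal component was -0.79 for the paraspeckle genes, with 17 of 24 below -0.7 and 0 above 0.7, against 17.8% of all tested genes below -0.7 and 9.19% above 0.7. It was -0.67 for the nuclear speckle genes, with 13 of 27 below -0.7 and 4 above 0.7 (CLK1, LUC7L3, SRSF11 and SRSF5, named after their values were seen), and -0.47 for the Polycomb list. Negative medians were not particular to the protein lists. The median r was -0.76 for the 8 tested 11p15 neighbors, with 4 below -0.7 and 1 above 0.7. For the 9 tested 11q13 neighbors it was -0.57, with 3 below -0.7 and 0 above 0.7, and for the 5 HOX genes -0.10. Among the 13 other lncRNAs tested the median was 0.22, with 2 above 0.7 and 3 below -0.7, the lowest at -0.88. The 2 above 0.7 were FTX (0.89) and TUG1 (0.88), picked out after their values were seen. MYC had an r of -0.94, opposite in sign to PCAT1. These values share the libraries and are given as descriptions.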

How the data were processed

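PC3 cells were profiled by single-end 50-base sequencing of stranded, ribosomal RNA-depleted libraries (the labels' molecule field says polyA RNA). Per the labels, the processing notes name bcl2fastq 2.20.0.422, cutadapt, HISAT2 2.1.0, HTSeq 0.11.2, DESeq2 1.22.2 and the build hg38. The study's methods name mm10, a mouse build, although the table holds human genes. The strand setting of the counting is not given in the sources used here. The authors deposited RPKM per gene and library.

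From these values, whole reads were recovered for 99.98% of values above 0 (within 1e-05 of a read). For the 6 genes of highest reads, GENCODE 29 lengths set the scale. Log2(RPKM + 0.1) of genes averaging 0.5 RPKM or more was fitted with limma 3.58.1 (R 4.3.3, eBayes with trend, two-sided, Benjamini-Hochberg adjustment over all tested genes) and tested on simulated data. Python 3.11.15 and scipy 1.17.1 gave the exact permutation and permutation tests. Samples were grouped by their labels, and no library was left out. Sequences are from RefSeq (GRCh38.p14), which matched 3 of the 10 members; other positions are from GENCODE 29.

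The members and lists were chosen with earlier results of these data known. Named genes were the members, their host or neighbor genes, list genes past the threshold, the highest and lowest of each list, the 3 genes most correlated with MALAT1 and with NEAT1, and the label check genes; 2 genes are not reported here. KRT8, KRT18, VIM, CDH2 and KLK3 come from the marker lists, and CTSD, FTX, TUG1, CLK1, LUC7L3, SRSF11 and SRSF5 were named after their values were seen. Alternatives covered the pseudocount, filter, scaling, replicate block, trend, weights, voom, covariates and each library left out.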

Additional observations from a re-analysis of the deposited data

Results flagged for a closer look

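Within a group of 5 libraries, a value stood apart from the rest for 2 of the 20 combinations of member and treatment. NEAT1 in DMSO 4 was the lowest of its group, with a gap to the next library of 0.778 of the group's range on the log2 scale. PCA3 in DMSO 5 was the highest of its group, with a gap of 0.771, on 20 reads. Both exceed Dixon's limit of 0.71 for 5 values, which chance passes in about 1 of 20 groups. DMSO 4 was also the lowest library on the first principal component, at -21.9.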

How the results depend on the processing

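The 5 tested members stayed on the same side of the threshold in all 23 alternatives, with a lowest adjusted p of 0.232 (KCNQ1OT1, first principal component as a covariate). MALAT1 and HOTAIRM1 kept a positive log2 fold change (0.10 to 0.36 and 0.09 to 0.22), and PVT1 and KCNQ1OT1 a negative one (-0.15 to -0.03 and -0.31 to -0.04). NEAT1, at 0.08, turned to -0.11 with library weights, -0.021 when the 7SL share was a covariate and -0.24 without the 3 libraries highest on the first principal component, a setting chosen after seeing the data. Leaving out each library in turn gave NEAT1 -0.061 to 0.22, below 0 without DMSO 4, GW3965 1 or GW3965 2 (-0.035, -0.034 and -0.061). The count of all genes past the threshold, 32, became 21 without a filter, 20 without the trend, 56 with library weights, 63 with voom, 21 with the 7SL share, 146 with the first principal component and 18 without the 3 libraries. With each library left out it was 17 to 38, and with the replicate block 16. Whether same-numbered libraries were paired is not stated in the sources used here. The correlations of their deviations ran from -0.14 to 0.16 and were above 0.1 for 2 of the 5 numbers, which cannot decide it. With the block the SE of MALAT1 went from 0.19 to 0.08, whereas that of PVT1 stayed at 0.08. The block gave MALAT1 a limma unadjusted p of 0.0181 and an adjusted p of 0.457 and changed no member's call. The cause of these shifts was not tested. The order of the 10 members by DMSO mean was the same when scaled by the total of reads. With each DMSO library left out, 5 to 10 members kept their place, the fewest without DMSO 3 (5) and DMSO 5 (6). With a pseudocount of 1 the SD of log2 values shrank by over 1.5 times for 6 of the members, those of low level. Depth limits HOTAIR, H19, PCA3 and SCHLAP1, with at most 30 reads in a library.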
